A study of Mus musculus with 2 samples.

Results

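*Tcf7* (ENSMUSG00000000782) and *Lef1* (ENSMUSG00000027985) are the members of the TCF/LEF family of transcription factors that developing T cells use. TCF-1, the protein encoded by *Tcf7*, is switched on early under Notch signalling and is needed for T-lineage specification, and LEF-1, encoded by *Lef1*, acts beside it at later stages. Both proteins bind the same DNA motif through an HMG box, can recruit β-catenin, the effector of canonical Wnt signalling, and otherwise recruit corepressors of the TLE group. These are 2 of the 28692 genes listed in the files, and they were followed by name, with no threshold on a measured value.

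The cells came from wild type CD1 mouse embryos at E13.5. Liver cells were depleted of TER-119+ erythroid cells and sorted as Sca-1+ cKit+ progenitors, and 1000 cells per well were cultured on plates coated with the Notch ligand DL4 at 10 µg/mL and the adhesion molecule VCAM-1 at 2.32 µg/mL. Cells were captured directly after the sort or after 4 or 7 days on these plates, and time points were pooled, but the labels do not tell which of them FL001 and FL002 hold. Both libraries carry the same description and the number of embryos is not stated, so each is 1 sample and no test between them was possible. All intervals below are 95% intervals that cover counting error only. A UMI is a count of 1 captured mRNA molecule, and CPM denotes UMIs of a gene per 1e6 UMIs summed over a set of barcodes.

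After barcodes with fewer than 1500 UMIs, fewer than 500 genes or more than 10% mitochondrial UMIs were left out, 1788 barcodes remained in FL001 and 4100 in FL002, with medians of 7722 and 4752.5 UMIs. The libraries shared 10 of these barcode sequences. *Ptprc*, which encodes the pan-leukocyte protein CD45, was at 118 and 113 CPM, and *Alb*, the hepatocyte albumin gene, was at 0.132 CPM in FL001 and 0 in FL002. *Afp*, the α-fetoprotein gene of fetal liver, was at 6.81 and 4.74 CPM and was counted in 4.70% and 2.32% of barcodes. Transcripts of the sorting markers were still present, *Kit* at 60.2 and 59.6 CPM and *Ly6a* (Sca-1) at 7.54 and 8.27 CPM. The coreceptor gene *Cd4* was at 0.794 and 1.03 CPM and *Cd8a* at 0.132 and 0 CPM. Barcodes with at least 1 UMI of *Tcf7* or *Lef1* numbered 1108 of 1788 in FL001 and 2407 of 4100 in FL002.

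Barcodes were placed in gates by UMIs of genes other than *Tcf7* and *Lef1*. The progenitor gate took barcodes with at least 2 UMIs of *Lmo2* plus *Mef2c*, progenitor regulators, and at most 1 UMI of *Cd3g*, a CD3 chain. The early gate took barcodes with at most 2 UMIs of *Cd3g* and at most 1 of *Lmo2* plus *Mef2c*. The Cd3g gate required at least 3 UMIs of *Cd3g* and none of *Il2ra* (CD25), the Il2ra gate at least 1 UMI of *Il2ra*, and the commitment gate at least 1 UMI of *Ptcra* plus *Bcl11b*, the pre-TCRα chain and the factor that marks T-lineage commitment. In the plots the progenitor gate is marked Lmo2/Mef2c and the commitment gate Ptcra/Bcl11b, and levels are CPM. They held 428, 381, 327, 738 and 446 barcodes in FL001 and 724, 1134, 873, 1668 and 795 in FL002. The gates overlap, and the commitment gate shared 290 barcodes with the Il2ra gate in FL001 and 480 in FL002. With the Cd3g gate it shared 145 and 287 barcodes. The early gate shared 75 and 276 barcodes with the Il2ra gate. Among genes that the gates did not use, the first and last gates differed: *Cd34* was at 264 and 262 CPM in the progenitor gate and 17.1 and 15.9 CPM in the commitment gate, while *Thy1* was at 2.97 and 5.18 CPM in the former and 152 and 141 CPM in the latter.

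The most alike stretch of the *Tcf7* and *Lef1* coding sequences is shown because the reads of such close relatives could be exchanged in counting. In the GENCODE M21 transcripts of the GRCm38 genome it spans 232 bases, of which 188 (81.0%) are identical, printed 5′ to 3′ in the sense of each gene with the 44 differing bases in capitals.
Tcf7: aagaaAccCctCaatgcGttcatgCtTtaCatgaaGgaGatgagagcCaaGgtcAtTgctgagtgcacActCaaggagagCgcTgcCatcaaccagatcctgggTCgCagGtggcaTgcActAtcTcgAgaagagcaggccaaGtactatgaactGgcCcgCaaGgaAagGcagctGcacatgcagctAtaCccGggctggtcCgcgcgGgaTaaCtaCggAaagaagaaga
Lef1: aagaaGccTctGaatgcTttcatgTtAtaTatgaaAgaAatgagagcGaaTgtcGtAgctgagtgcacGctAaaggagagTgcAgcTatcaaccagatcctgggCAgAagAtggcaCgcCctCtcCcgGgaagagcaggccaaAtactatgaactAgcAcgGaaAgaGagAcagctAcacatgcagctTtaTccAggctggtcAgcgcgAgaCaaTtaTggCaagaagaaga
The *Tcf7* stretch is coding sequence of exons 7 to 9 on the minus strand, between chr11:52256294-52257059, and the *Lef1* stretch that of exons 8 to 10 on the plus strand, between chr3:131194677-131204268. They lie 1628 and 1358 bases from the 3′ ends of their transcripts. Over all 8 pairs of coding transcripts the longest run of bases that both genes share is 17, and within the last 500 bases of the transcripts it is 11. The *Tcf7* gene spans chr11:52252371-52283014 and overlaps *Gm26551* on the same strand, with 34 UMIs in FL001 and 83 in FL002 against 3066 and 6048 of *Tcf7*. It also overlaps the antisense gene *A630014C17Rik*, with 4 and 7 UMIs. *Lef1*, at chr3:131110471-131224356, overlaps the antisense gene *Gm43352*, with 40 and 22 UMIs against 1271 and 585 of *Lef1*. The strand setting of the counting is not given in the sources used here, so reads of overlapping genes cannot be told apart.

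*Tcf7* was nearly absent from the progenitor gate and was already abundant before *Cd3g*. In FL001 its level was 24.8 CPM (20.02 to 30.4) in the progenitor gate, 174 CPM (160 to 190) in the early gate, 298 CPM (278 to 318) in the Cd3g gate, 275 CPM (263 to 288) in the Il2ra gate and 256 CPM (240 to 274) in the commitment gate. In FL002 the same gates gave 35.1 CPM (29.7 to 41.2), 229 CPM (217 to 242), 417 CPM (398 to 436), 386 CPM (372 to 399) and 377 CPM (357 to 397). The order was the same in both libraries, lowest in the progenitor gate and highest in the Cd3g gate. With barcodes in 1 gate each, the early gate had 160 CPM (144 to 177) in FL001 and 188 CPM (175 to 201) in FL002. The Cd3g gate stood 11.98-fold (9.65 to 15.0) above the progenitor gate in FL001 and 11.9-fold (10.1 to 14.1) in FL002, and most of this step lay between the progenitor and early gates, at 7.03-fold and 6.53-fold. The Il2ra gate over the Cd3g gate gave 0.925 (0.852 to 1.01) in FL001 and 0.925 (0.873 to 0.980) in FL002. As whole gates these neighbours were thus separated beyond counting error in FL002 only. Among barcodes without *Ptcra* or *Bcl11b*, the Cd3g gate over the Il2ra gate gave 1.12 (1.01 to 1.24) and 1.15 (1.08 to 1.23), separated in both libraries. Among barcodes with either gene it gave 1.04 (0.900 to 1.20) and 0.929 (0.831 to 1.04). The commitment gate over the Il2ra gate gave 0.931 (0.858 to 1.01) and 0.977 (0.917 to 1.04), but these gates share 290 and 480 barcodes. The ratio is thereby drawn towards 1 and its interval treats shared UMIs as separate counts, so it cannot show whether the gates differ. None of the Il2ra barcodes without *Ptcra* or *Bcl11b* are in the commitment gate. They had *Tcf7* at 286 CPM (271 to 303) in FL001 and 382 CPM (367 to 398) in FL002.

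**Figure D1:**
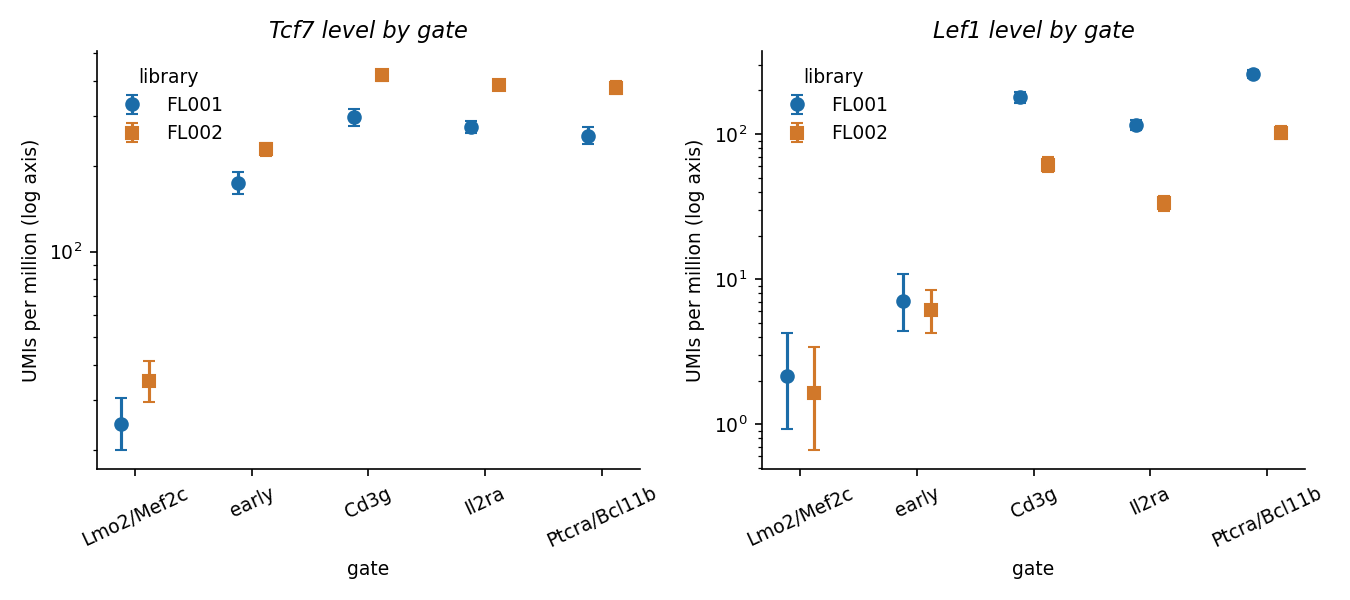
Level of *Tcf7* (left) and *Lef1* (right) in CPM on a log axis, by gate, in FL001 (circles) and FL002 (squares); bars are exact 95% Poisson intervals. *Tcf7* is at 174 and 229 CPM in the early gate, whereas *Lef1* is at 7.07 and 6.12 CPM there and at 33.4 CPM or more in the last 3 gates.

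Within the progenitor gate the level of *Tcf7* was lower where more UMIs of the gating genes were counted. Barcodes with exactly 2 UMIs of *Lmo2* plus *Mef2c* had 58.0 CPM (42.3 to 77.6) in FL001 and 82.5 CPM (67.9 to 99.3) in FL002, and those with at least 5 had 6.33 CPM (3.27 to 11.1) and 3.84 CPM (1.25 to 8.95). A *Tcf7* UMI was found in 6 of 196 and 4 of 197 of the latter barcodes. This compares with 4 of 64 and 1 of 58 barcodes with at least 10 summed UMIs of 6 neutrophil and monocyte genes, a cell type that should lack *Tcf7*, at median depths of 11574.5 and 7885 UMIs. The shares of 3.06% and 2.03% could thus not be set apart from the myeloid shares of 6.25% (1.73% to 15.2%) and 1.72% (0.0436% to 9.24%). The myeloid intervals are wide, so a small real share could not be seen. In FL001, 1 barcode with at least 5 UMIs of the gating genes held 7 of the 12 *Tcf7* UMIs. Whether these counts are background was not tested.

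In the early gate, *Tcf7* was higher at each further UMI of *Cd3g*. Barcodes with 0, 1 and 2 UMIs of *Cd3g* had 152 CPM (135 to 171), 196 CPM (165 to 232) and 252 CPM (202 to 310) in FL001. In FL002 they had 164 CPM (152 to 178), 320 CPM (290 to 352) and 400 CPM (356 to 448). Thus 108 of 258 and 299 of 755 barcodes in which no *Cd3g* UMI was counted already held *Tcf7*.

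The share of barcodes with a *Tcf7* UMI was 10.7% and 11.0% in the progenitor gate, 49.9% and 49.1% in the early gate, 75.5% and 74.8% in the Cd3g gate, 76.8% and 73.8% in the Il2ra gate and 71.1% and 69.3% in the commitment gate (FL001 and FL002). These near-equal shares set a deeper library beside a shallower one. After every barcode was thinned to 1500 UMIs, which removed none, the shares were 2.34% and 3.73%, 16.5% and 24.1%, 33.6% and 45.02%, 28.5% and 40.9%, and 24.0% and 38.4%. At equal depth FL002 held a larger share of *Tcf7*-positive barcodes than FL001 in each gate, as its levels did. In the progenitor gate the intervals of these shares overlapped (1.13% to 4.25% and 2.47% to 5.38%).

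*Lef1* was near zero where *Tcf7* was already abundant. In FL001 its level was 2.16 CPM (0.932 to 4.25) in the progenitor gate, 7.07 CPM (4.38 to 10.8) in the early gate, 179 CPM (164 to 195) in the Cd3g gate, 116 CPM (107 to 124) in the Il2ra gate and 260 CPM (243 to 278) in the commitment gate. In FL002 the levels were 1.65 CPM (0.662 to 3.39), 6.12 CPM (4.29 to 8.47), 61.6 CPM (54.5 to 69.4), 33.4 CPM (29.6 to 37.5) and 102 CPM (92.1 to 113). The order of the gates was the same in both libraries, with the Il2ra gate below the Cd3g gate and the commitment gate highest. Both the Cd3g and Il2ra gates share barcodes with the commitment gate. With barcodes in 1 gate each, the Cd3g gate had 81.3 CPM in FL001 and 25.3 CPM in FL002. The Il2ra gate then had 52.2 and 17.8 CPM, and the order was unchanged. From the early to the commitment gate *Lef1* differed 36.7-fold (23.9 to 59.6) in FL001 and 16.7-fold (11.8 to 24.2) in FL002, against 1.47-fold and 1.65-fold for *Tcf7*. The FL001 fold rests on 21 *Lef1* UMIs in the early gate and was 60.34 with a minimum of 3000 UMIs and 98.92 with mitochondrial UMIs at most 5%. With barcodes in 1 gate each the FL002 fold was 28.06.

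*Lef1* UMIs were counted in 3 of 428 and 5 of 724 barcodes of the progenitor gate and in 15 of 381 and 24 of 1134 barcodes of the early gate. In myeloid barcodes the counts were 1 of 64 and 0 of 58, and the latter allows a share of up to 5.17%. The progenitor gate shares were 0.701% and 0.691%, and the early gate shares 3.94% and 2.12%. They can therefore not be set apart from the myeloid shares. Within the early gate, however, the *Lef1* level was higher at 2 UMIs of *Cd3g* than at 0. It was 28.9 CPM (13.9 to 53.2) against 2.10 CPM (0.572 to 5.38) in FL001. In FL002 it was 18.5 CPM (10.1 to 31.0) against 3.39 CPM (1.81 to 5.80). These levels rest on 10 and 4 UMIs in FL001 and on 14 and 13 in FL002, where 1 barcode held 9 of the 14. Of the *Lef1*-positive barcodes, 389 of 401 in FL001 (97.0%) and 309 of 328 in FL002 (94.2%) lay in the Cd3g, Il2ra or commitment gates. These overlapping gates also took a large part of all barcodes. They held 327, 738 and 446 of 1788 in FL001 and 873, 1668 and 795 of 4100 in FL002. The commitment gate shared 145 and 287 of its barcodes with the Cd3g gate and 290 and 480 with the Il2ra gate. The Cd3g and Il2ra gates share no barcodes. In these 3 gates *Lef1* was counted in 46.8%, 31.8% and 59.0% of FL001 barcodes and 15.8%, 10.1% and 23.5% of FL002 barcodes. Thinned to 1500 UMIs, the shares were 22.9%, 14.0% and 28.0% in FL001 and 7.56%, 4.796% and 11.9% in FL002.

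Droplets with at most 100 UMIs, taken as a sample of free RNA, contained *Tcf7* at 180 CPM in FL001 and 257 CPM in FL002, and *Lef1* at 89.3 and 32.0 CPM. The intervals of these *Lef1* levels were 70.9 to 111 CPM in FL001 and 22.4 to 44.3 CPM in FL002. In each library they overlapped that of the Il2ra gate (107 to 124 and 29.6 to 37.5 CPM). They lay above *Lef1* in Il2ra barcodes without *Ptcra* or *Bcl11b*, at 52.2 CPM (45.5 to 59.5) and 17.8 CPM (14.6 to 21.4). The *Tcf7* intervals, 153 to 209 CPM in FL001 and 228 to 289 CPM in FL002, likewise overlapped those of the early gate. In myeloid barcodes *Tcf7* was at 5.33 CPM (1.45 to 13.6) in FL001 and 2.18 CPM (0.0553 to 12.2) in FL002. How much free RNA added to the levels in cells was not tested.

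The level of *Lef1* was several-fold higher in barcodes with the commitment genes than in those without. In the Il2ra gate *Lef1* was at 236 CPM (216 to 257) with *Ptcra* or *Bcl11b* and 52.2 CPM (45.5 to 59.5) without in FL001. In FL002 it was at 80.4 CPM (68.7 to 93.5) with and 17.8 CPM (14.6 to 21.4) without. The ratio was 4.52 in both libraries, with intervals of 3.85 to 5.31 and 3.54 to 5.79. The Cd3g gate, which has no *Il2ra* UMI, gave the same direction, with 323 against 81.3 CPM in FL001 (3.97-fold, 3.26 to 4.87) and 139 against 25.3 CPM in FL002 (5.49-fold, 4.19 to 7.25).

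For *Tcf7* the corresponding ratios were smaller and mostly in the other direction. In the Il2ra gate, with over without *Ptcra* or *Bcl11b* gave 0.885 (0.800 to 0.979) in FL001 and 1.04 (0.956 to 1.12) in FL002. The Cd3g gate gave 0.822 (0.712 to 0.948) and 0.836 (0.754 to 0.927), *Tcf7* being lower in the barcodes with commitment genes. Of these 4 intervals only that of the Il2ra gate in FL002 included 1.

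*Lef1* was higher in barcodes with both commitment genes than in those with either alone. *Lef1* was at 192 CPM (171 to 216) in FL001 barcodes with *Ptcra* alone, 207 CPM (178 to 239) with *Bcl11b* alone and 391 CPM (355 to 430) with both. The FL002 values were 65.8 CPM (55.5 to 77.4), 88.2 CPM (67.6 to 113) and 219 CPM (187 to 255). Barcodes with either gene alone overlapped in their intervals, and those with both genes lay above them in each library. *Tcf7* was lowest among the T-lineage subsets in barcodes with at least 3 UMIs of *Ptcra*, at 192 CPM (167 to 220) and 297 CPM (258 to 340), where *Lef1* was at 392 and 170 CPM. Barcodes with *Rag1*, a recombinase gene, had *Lef1* at 289 CPM (257 to 323) and 141 CPM (120 to 165).

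**Figure D2:**
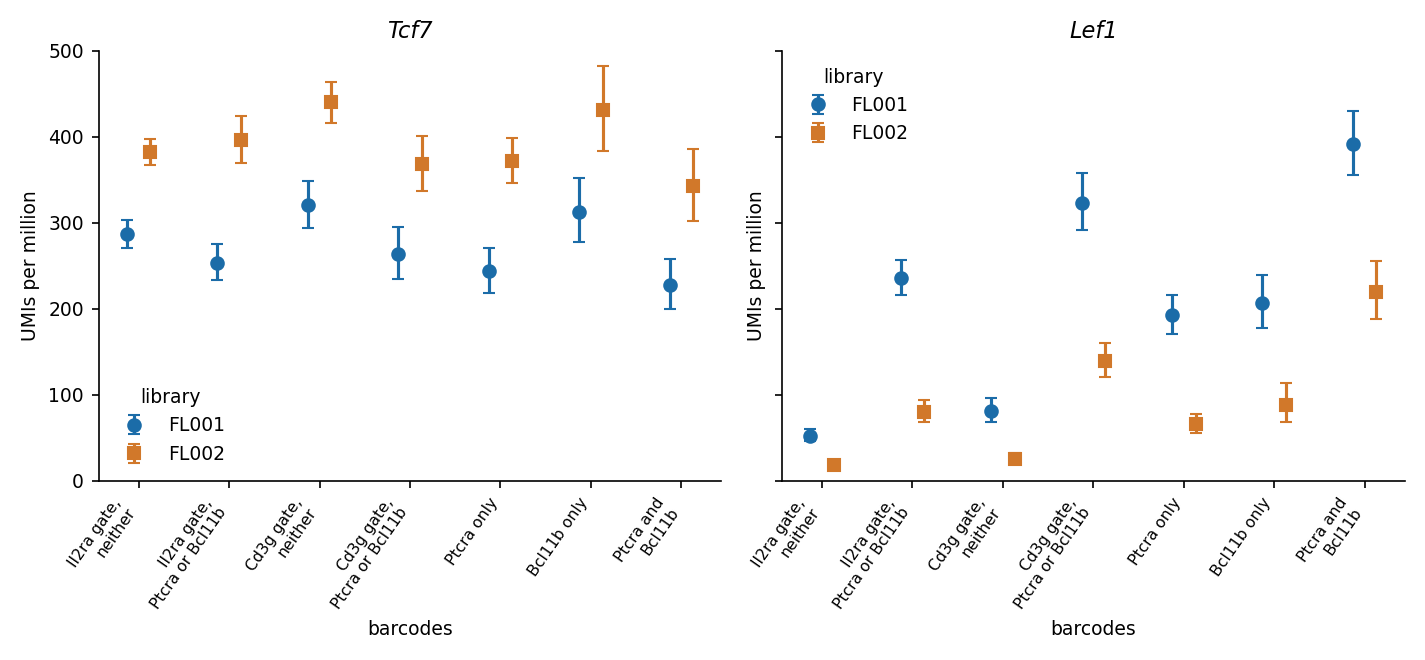
Level of *Tcf7* (left) and *Lef1* (right) in CPM in barcodes of the Il2ra and Cd3g gates with neither *Ptcra* nor *Bcl11b* or with at least 1 UMI of them, and in all barcodes with *Ptcra* only, *Bcl11b* only or both; circles are FL001, squares FL002, bars exact 95% Poisson intervals. *Lef1* reaches 391 and 219 CPM in barcodes with both genes, and *Tcf7* stays between 227 and 440 CPM throughout.

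*Lef1* did not follow the amount of *Il2ra* in 1 direction. Barcodes with at least 5 UMIs of *Il2ra* over those with 1 gave 0.905 (0.738 to 1.11) in FL001 and 0.962 (0.671 to 1.37) in FL002 for *Lef1*, and 1.10 (0.976 to 1.25) and 1.10 (0.989 to 1.21) for *Tcf7*. Barcodes with 2 to 4 UMIs of *Il2ra* had *Lef1* at 140 CPM (126 to 156) in FL001, above both of these classes, and at 33.3 CPM (27.9 to 39.5) in FL002. *Tcf7* at 1, 2 to 4 and at least 5 UMIs of *Il2ra* was at 263 CPM (238 to 291), 266 CPM (246 to 287) and 291 CPM (270 to 313) in FL001, with overlapping intervals. In FL002 it was at 355 CPM (333 to 377), 406 CPM (387 to 427) and 389 CPM (358 to 421), the lowest class lying below the middle one. Among Il2ra barcodes without commitment genes, those with at least 3 UMIs of *Trdc*, the δ-chain constant gene, had *Lef1* at 41.1 CPM (23.0 to 67.8) and 11.6 CPM (3.16 to 29.7). Those without *Trdc* had 37.1 CPM (30.01 to 45.3) and 18.3 CPM (14.4 to 23.0), so that *Lef1* was not separated by *Trdc* in either library.

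*Lef1* and *Tcf7* differed between the libraries in opposite directions. The FL001 level of *Lef1* was 2.91 times (2.50 to 3.38) that of FL002 in the Cd3g gate, 3.46 times (3.01 to 3.98) in the Il2ra gate and 2.54 times (2.25 to 2.88) in the commitment gate. For *Tcf7* the ratios in the same gates were 0.714 (0.657 to 0.775), 0.714 (0.673 to 0.756) and 0.679 (0.624 to 0.740). In the progenitor and early gates *Tcf7* had ratios of 0.708 and 0.762, and *Lef1*, with 8 and 7 UMIs and then 21 and 36 UMIs, had wide intervals that included 1.

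Such a difference was rare among genes. With 10 CPM added to each level, 44 genes (1.39%) were at least 1.5-fold higher in FL001 in the Il2ra gate, 31 (0.981%) in the Cd3g gate and 48 (1.49%) in the commitment gate. *Lef1* was among them, and only 4 of 3163 genes in the Il2ra gate, 4 of 3160 in the Cd3g gate and 6 of 3219 in the commitment gate had a larger ratio. The 6 genes of the commitment gate were *H2-T3*, *Fam132a*, *Gstp1*, *Prss2*, *Pdzk1* and *Skap1*, named here after their values were seen. Those of the Cd3g gate were *Lgals3*, *H2-T3*, *Fam132a* and *Gstp1*, and those of the Il2ra gate *Hbb-bs*, *Hba-a1*, *S100a8* and *Gstp1*. The haemoglobin genes *Hbb-bs* and *Hba-a1*, of erythroid cells, had 636 and 338 UMIs in the Il2ra gate of FL001 against 0 and 1 in FL002, and *S100a8*, of neutrophils, had 385 against 15. Without the 74 and 15 barcodes of that gate that carried a UMI of these 3 genes, the *Lef1* ratio was 3.54 (3.07 to 4.09), and in the commitment gate it was 2.56 (2.26 to 2.90) without 41 and 3 barcodes. *Tcf7* did not reach 1.5-fold, but 67, 67 and 59 genes had a lower ratio in those gates.

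The commitment genes themselves were alike in the gate that selected on them, *Ptcra* at 290 and 336 CPM and *Bcl11b* at 146 and 132 CPM. There *Tcf12* was at 141 and 135 CPM, *Rag1* at 51.7 and 59.0 CPM and *Gata3* at 103 and 109 CPM. The other gates were less alike. In the Il2ra gate *Ptcra* was at 87.4 and 84.8 CPM and *Bcl11b* at 52.2 and 34.3 CPM. The Cd3g gate had *Ptcra* at 150 and 110 CPM and *Bcl11b* at 57.0 and 41.6 CPM. Barcodes with either gene made up 39.3% of the Il2ra gate in FL001 and 28.8% in FL002. Restricted to barcodes with both *Ptcra* and *Bcl11b*, the *Lef1* ratio was 1.78 (1.49 to 2.14), and with at least 3 UMIs of *Ptcra* it was 2.31 (1.88 to 2.85). The difference in depth changes which barcodes pass a gate, so the gates were also set on the UMIs left after thinning. The *Lef1* ratio was then 3.50 (2.90 to 4.24) in the Il2ra gate and 2.82 (2.39 to 3.32) in the commitment gate. In terms of UMIs, there were 1.01 of *Lef1* for each of *Tcf7* in the commitment gate of FL001 and 0.271 in that of FL002. Since each library is 1 sample, culture, time and preparation cannot be told apart as sources of these differences.

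**Figure D3:**
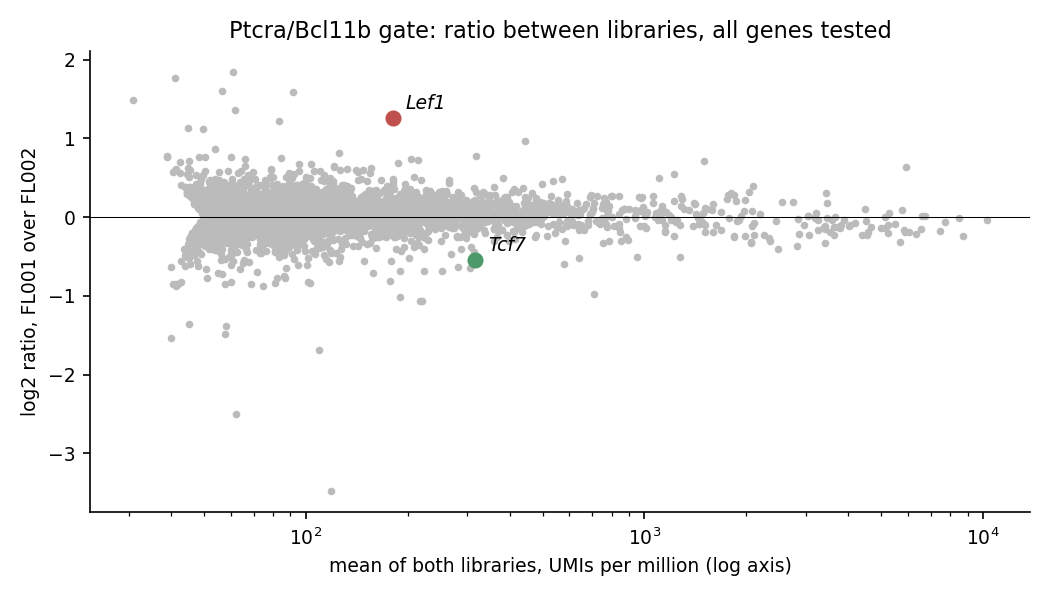
Log2 ratio of FL001 over FL002 in the commitment gate, with 10 CPM added to each level, against the mean level of both libraries (log axis); each point is 1 of 3219 genes. *Lef1* lies at 1.27 and *Tcf7* at -0.54, while the median gene lies at 0.04.

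Across all barcodes *Tcf7* and *Lef1* were found together in 288 barcodes of FL001 and 240 of FL002, which is 1.29 times what the product of their shares gives in each library. Within the T-lineage gates this ratio was 0.883 and 0.949 in the Cd3g gate, 0.986 and 1.06 in the Il2ra gate and 0.968 and 0.995 in the commitment gate. As most barcodes of these gates held *Tcf7*, the ratio could not rise far above 1. After thinning, the Cd3g gate of FL001 gave 15 barcodes with both where the product gave 25.2, a ratio of 0.595 (0.336 to 0.966). That of FL002 gave 25 against 29.7. Over all barcodes the thinned ratios were 1.17 and 1.20.

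Most *Lef1*-positive barcodes also held *Tcf7*, as did most *Lef1*-negative barcodes of the T-lineage gates. In the Cd3g gate of FL001 the shares were 66.7% (58.6% to 74.1%) against 83.3%, so *Tcf7* was found less often with *Lef1* there. The Il2ra gate of FL001 gave 75.7% against 77.3% and the commitment gate 68.8% against 74.3%. In FL002 the same 3 gates gave 71.0% against 75.5%, 78.0% against 73.3% and 69.0% against 69.4%. In the Il2ra gate 178 barcodes of FL001 had both, 57 had *Lef1* alone and 389 had *Tcf7* alone, and in FL002 the numbers were 131, 37 and 1100. In the commitment gate they were 181, 82 and 136 in FL001 and 129, 58 and 422 in FL002. *Lef1*-positive barcodes thus outnumbered *Tcf7*-only barcodes in the commitment gate of FL001 but not in that of FL002. Over all gates, barcodes with *Lef1* alone were the shallowest, with medians of 4723 and 3846.5 UMIs, and those with *Tcf7* alone had 9137 and 4867. Of the barcodes with both, 4.51% and 3.33% carried *Xist* together with a Y-linked transcript, a mark of 2 cells in 1 droplet, against 4.38% and 3.03% of those with *Tcf7* alone.

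**Figure D4:**
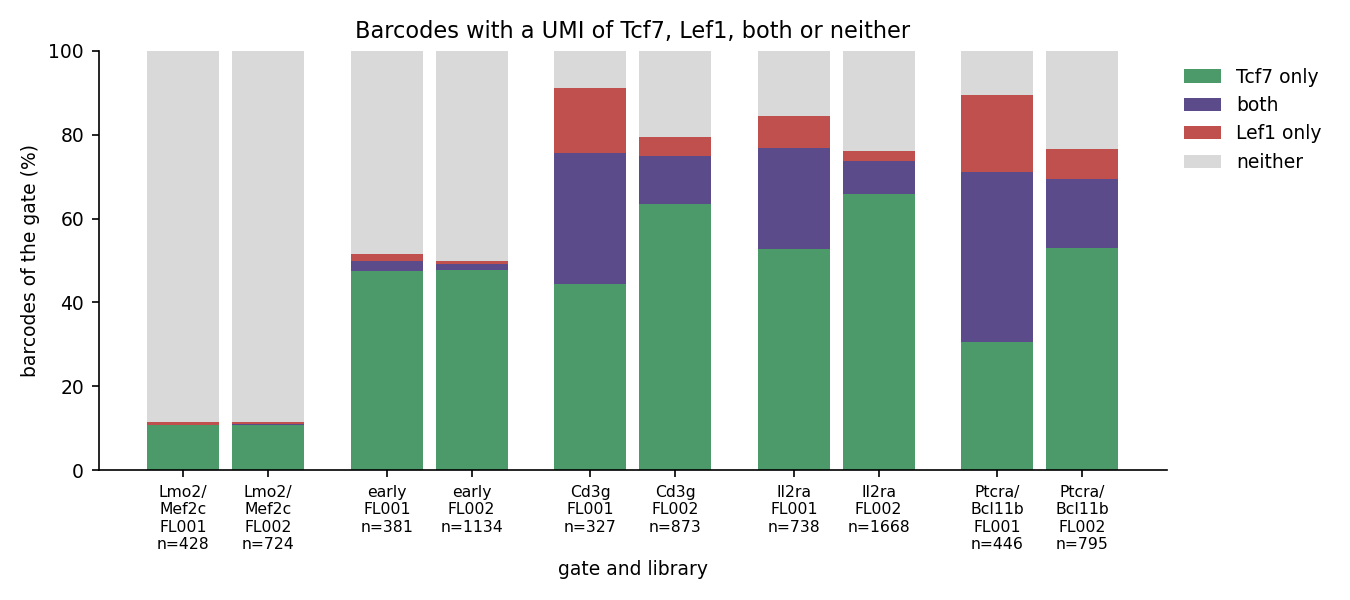
Share of barcodes in each gate and library (%) with a UMI of *Tcf7* only (green), of both genes (purple), of *Lef1* only (red) or of neither (grey); n is the number of barcodes. Barcodes with both make up 24.1% of the Il2ra gate in FL001 and 7.85% in FL002, and barcodes with *Tcf7* only 52.7% and 65.9%.

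The level of *Lef1* was lower where at least 4 *Tcf7* UMIs were counted than where none was, except in the Il2ra gate of FL002. In the Cd3g gate of FL001, barcodes without a *Tcf7* UMI had *Lef1* at 365 CPM (313 to 424), and those with at least 4 had 98.9 CPM (81.5 to 119). In FL002 the values were 92.8 CPM (73.9 to 115) and 48.7 CPM (37.1 to 62.9). The Il2ra gate gave 159 and 73.7 CPM in FL001, but 32.5 CPM (24.9 to 41.8) and 28.9 CPM (22.0 to 37.4) in FL002, where the intervals overlapped. The commitment gate gave 393 CPM (348 to 442) and 159 CPM (136 to 185) in FL001, and 118 CPM (96.8 to 142) and 63.8 CPM (47.4 to 84.2) in FL002. These classes also differ in depth, as a barcode with more UMIs is more likely to show at least 4 of *Tcf7*.

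To find what accompanies *Lef1*, *Lef1*-positive barcodes were compared with *Tcf7*-only barcodes inside a gate, *Tcf7*-only meaning at least 1 UMI of *Tcf7* and none of *Lef1*. A gene was called when its CPM, with 10 CPM added, differed at least 1.5-fold in the same direction in both libraries, among genes with at least 50 CPM in either class of each library. The call is a rule of size and not a test. In the Il2ra gate, 235 and 168 *Lef1*-positive barcodes stood against 389 and 1100 *Tcf7*-only barcodes. Of 2983 genes tested, 41 (1.37%) were higher and 33 (1.11%) lower in *Lef1*-positive barcodes. Median depth was 7117 and 5211.5 UMIs in *Lef1*-positive and 9102 and 4580 UMIs in *Tcf7*-only barcodes, so the classes differed in opposite directions in the 2 libraries.

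The genes with the largest ratios in that gate included the commitment genes. *Bcl11b* was at 111 against 26.8 CPM in FL001 (3.29-fold) and 83.1 against 25.7 CPM in FL002 (2.61-fold). *Ptcra* was at 199 against 37.0 CPM (4.45-fold) and 185 against 65.6 CPM (2.58-fold). *Cdh1*, the gene of the adhesion molecule E-cadherin, was at 203 against 40.7 CPM (4.19-fold) and 153 against 44.5 CPM (2.99-fold). It was counted in 64.7% of *Lef1*-positive and 20.6% of *Tcf7*-only barcodes of FL001, and in 39.3% and 14.7% in FL002.

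*Gal*, which encodes the neuropeptide galanin, ranked highest, with 101 against 3.48 CPM in FL001 (8.24-fold) and 165 against 19.3 CPM in FL002 (5.98-fold). *Crhbp*, which encodes the corticotropin-releasing hormone binding protein, followed with 72.1 against 11.5 CPM (3.81-fold) and 137 against 8 CPM (8.15-fold). Both were restricted to few barcodes, *Gal* to 16.6% and 26.8% and *Crhbp* to 8.94% and 10.1% of the *Lef1*-positive ones. *Bex1* had ratios of 5.20 and 2.88, *Bst1*, the gene of the ectoenzyme CD157, 2.44 and 2.61, *Agpat4* 2.44 and 2.57, and *Cd7*, an early T-lineage surface protein, 2.35 and 2.45. *Ighm*, the μ heavy-chain constant gene, had 73.2 against 14.7 CPM (3.36-fold) and 107 against 39.5 CPM (2.37-fold).

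Since *Ighm* is a B-lineage gene, the other genes of that list were examined. In the *Lef1*-positive barcodes of the Il2ra gate, 4 of 9 B-lineage genes were at 0 in each library. The summed level of the list was 90.5 and 119 CPM, of which *Ighm* made up 73.2 and 107, and in *Tcf7*-only barcodes it was 39.1 and 68.2 CPM. Barcodes with at least 3 UMIs of *Ighm*, *Ebf1* and *Cd79b* made up 19 of 235 (8.09%) and 9 of 168 (5.36%) *Lef1*-positive barcodes. Their share of all barcodes of the gate was smaller, at 3.79% and 1.98%. Without all such barcodes of the gate, 39 genes were called higher, 37 of them among the 41.

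Of the 10 lowest genes in *Lef1*-positive barcodes, *Mpo*, the myeloperoxidase gene of the granulocyte lineage, was at 8.95 against 80.1 CPM in FL001 (ratio 0.210) and 10.9 against 76.7 CPM in FL002 (ratio 0.242). *Ctla2a*, a cathepsin inhibitor, was at 60.0 against 198 CPM and 49.2 against 151 CPM. *Serpina3g* and *Serpinb1a*, serine protease inhibitors, had ratios of 0.271 and 0.397 and of 0.299 and 0.428. *Cd48*, *Cd81*, *4930519L02Rik*, *Pla2g16*, *Lst1* and *Vamp5* completed the 10 lowest, with ratios between 0.247 and 0.464. The summed level of 13 neutrophil and monocyte genes was 27.4 and 21.9 CPM in *Lef1*-positive and 137 and 144 CPM in *Tcf7*-only barcodes, in which *Mpo* made up 80.1 and 76.7 CPM.

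In the commitment gate, 263 and 187 *Lef1*-positive barcodes were compared with 136 and 422 *Tcf7*-only barcodes. There, 31 of 3012 genes (1.03%) were higher and 24 (0.797%) lower in *Lef1*-positive barcodes. Of the genes called higher, 17 were also called in the Il2ra gate, which is 54.8% of the commitment list and 41.5% of the Il2ra list, and of the genes called lower 14 were, 58.3% and 42.4%. The gates share barcodes, so this overlap is not independent.

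*H2-T3*, a nonclassical MHC class I gene, ranked highest, at 161 against 9.12 CPM in FL001 (8.92-fold) and 58.8 against 6.47 CPM in FL002 (4.18-fold). *H2-T3* belongs to a family of near-identical genes, between which reads can be split in counting, and its level is uncertain for that reason. *Skap1*, an adaptor of T-cell receptor signalling, had 132 against 25.5 CPM (3.98-fold) and 71.4 against 16.4 CPM (3.08-fold). *Crhbp*, *Bex1* and *Gal* were again among the 10, with ratios between 2.93 and 5.43. *Fabp4*, a fatty acid binding protein, had ratios of 2.81 and 4, and *Fbp1*, a gluconeogenic enzyme, 2.56 and 2.79. *Cd163l1* had 2.75 and 2.56 and *Tubb2b*, a β-tubulin, 2.22 and 2.55.

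The lowest 10 of the commitment gate again held *Ctla2a*, *Serpinb1a*, *Cd81* and *Vamp5*. *Ctla2a* was at 46.4 against 159 CPM and 22.1 against 91.1 CPM. *Tyrobp*, the DAP12 adaptor of innate receptors, was at 67.2 against 141 CPM (ratio 0.510) and 74.6 against 161 CPM (ratio 0.494). *Ppic*, *Bex6*, *Sdcbp*, *Fgf3* and *BC028528* had ratios between 0.319 and 0.551. *Trdc*, outside the 10, was at 114 against 177 CPM (ratio 0.664) and 110 against 190 CPM (ratio 0.601).

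**Figure D5:**
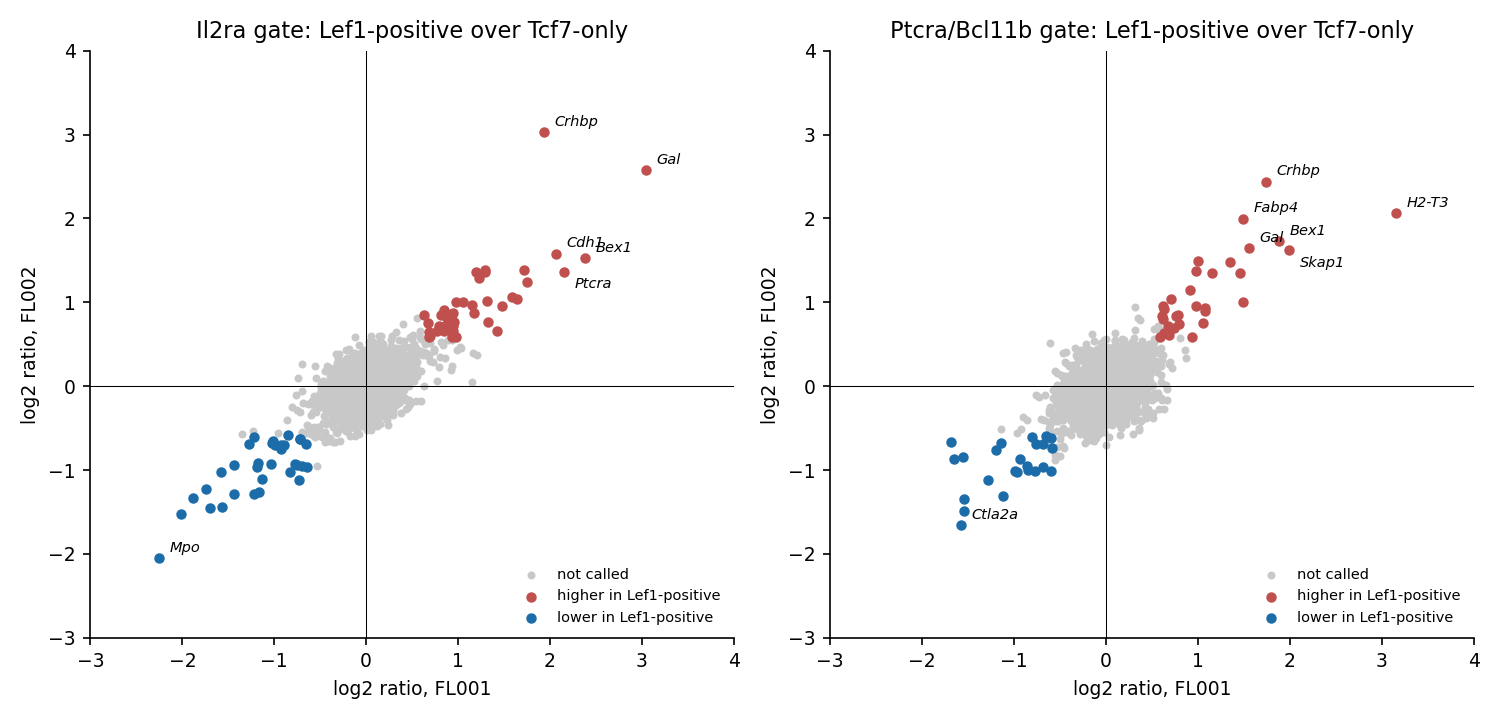
Log2 ratio of *Lef1*-positive over *Tcf7*-only barcodes in FL001 (x) and FL002 (y), with 10 CPM added, in the Il2ra gate (left, 2983 genes) and the commitment gate (right, 3012 genes); red and blue points were at least 1.5-fold higher or lower in both libraries. *Gal* lies at 3.04 and 2.58 in the Il2ra gate and *H2-T3* at 3.16 and 2.06 in the commitment gate.

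Of the T-cell specification genes, 18 of 30 were tested in the Il2ra gate and 4 were called higher, none lower. They were *Bcl11b*, *Cd7*, *Thy1* (1.93- and 1.64-fold) and *Tcf12* (1.92- and 1.58-fold), an E protein. The median log2 ratio of the list was 0.39 in FL001 and 0.32 in FL002, against -0.02 and 0.01 over all genes tested. In the commitment gate *Tcf12* (1.52- and 1.79-fold) and *Cd7* (1.63- and 2.05-fold) were called higher, with list medians of 0.12 and 0.10 against 0.01 and 0.01. *Gata3*, which drives T-lineage specification, was not called, at 119 against 79.9 CPM and 136 against 96.2 CPM in the Il2ra gate.

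Recombination and β-chain genes had 2 of 4 called higher in the Il2ra gate, *Ptcra* and *Trbc1* (1.80- and 1.57-fold). In the commitment gate 1 of 5 was called, *Rag1*, at 65.3 against 28.3 CPM and 93.5 against 43.3 CPM. *Ptcra* was not called in this gate, which it helped to define, with ratios of 1.81 and 1.35. No γδ list gene of 5 was called in the Il2ra gate, and 1 of 5, *Trdc*, was lower in the commitment gate.

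Of the progenitor genes, 5 of 18 were tested in the Il2ra gate, none was higher, and *Nfe2*, a haematopoietic bZIP factor, was lower, at 12.6 against 51.5 CPM and 23.0 against 53.2 CPM. The list medians were -0.60 and -0.57. In the commitment gate 2 were tested and neither was called, with medians of -0.57 and -0.55.

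Most of the genes through which TCF/LEF factors act did not reach the level tested. Of 28 cofactor and Wnt pathway genes, 4 were tested in each gate and none was called, with list medians between -0.17 and 0.03. *Ctnnb1*, which encodes β-catenin, was at 86.9 and 86.1 CPM in the progenitor gate and 58.1 and 51.1 CPM in the commitment gate. *Aes*, a short TLE relative, was at 116 and 112 CPM over all barcodes. Among the other family members, *Tcf7l1* gave 3 and 5 UMIs in all, and *Tcf7l2* was at 15.4 CPM (11.7 to 19.9) and 22.4 CPM (18.1 to 27.3) in the progenitor gate and 5.23 CPM (3.10 to 8.26) and 12.8 CPM (9.44 to 17.1) in the commitment gate, the direction opposite to that of *Lef1*.

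No Notch receptor or target of 5 tested was called in the Il2ra or commitment gate. The list medians in the Il2ra gate differed between the libraries, at 0.52 in FL001 and 0.07 in FL002, and were 0.33 and 0.19 in the commitment gate. *Notch1* was at 239 against 146 CPM (1.60-fold) and 223 against 172 CPM (1.28-fold) in the Il2ra gate. Of the proliferation genes, 16 and 17 were tested in these gates and none was called, *Mki67* having ratios of 0.884 and 1.07 in the Il2ra gate. Among innate lymphoid and NK genes, 7 were tested in the Il2ra gate, where *Gzma*, the granzyme A gene, was higher, at 8651 against 4170 CPM and 6240 against 3117 CPM, and *Tyrobp* was lower. *Gzma* was not called in the commitment gate, with ratios of 1.30 and 1.37. Genes of the megakaryocyte and erythroid list did not reach the level tested in either gate, and their summed level in the Il2ra gate was 29.998 and 20.8 CPM in *Lef1*-positive and 62.2 and 35.1 CPM in *Tcf7*-only barcodes.

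Further comparisons, chosen after the data were seen, used other sets of barcodes. Genes named in them that belong to no list (*Arpp21*, *Igfbp4*, *Fos*) were picked after their values were seen. In the Il2ra gate without *Ptcra* and *Bcl11b*, 80 and 77 *Lef1*-positive barcodes stood against 285 and 833, and 38 genes (1.27%) were higher and 22 (0.738%) lower. *Gal* again ranked highest, at 101 against 1.03 CPM and 55.2 against 4.17 CPM. *Gzma* had ratios of 2.42 and 2.12, *Tcrg-C1*, a γ-chain constant gene, 1.65 and 1.63, and *Mpo* 0.219 and 0.289. Of the 38 genes, 27 (71.1%) were among the 41 of the whole gate (65.9%).

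In barcodes with at least 3 UMIs of *Ptcra* plus *Bcl11b*, 32 genes (1.05%) were higher and 16 (0.527%) lower. *H2-T3* was at 224 against 12.2 CPM in FL001 and 108 against 12.4 CPM in FL002. *Trdc* was at 113 against 229 CPM and 89.4 against 221 CPM, and *Igfbp4* at 98.5 against 235 CPM and 66.5 against 219 CPM. The FL001 *Tcf7*-only class held 39 barcodes here.

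The Cd3g gate gave the most genes, 61 higher (2.03%) and 40 lower (1.33%) of 3007. In it 7 of 17 tested T-cell specification genes were higher. They included *Bcl11b*, at 107 against 14.7 CPM and 121 against 21.4 CPM, and *Cd3d*, a CD3 chain, at 590 against 172 CPM and 472 against 215 CPM. *Rag1* was at 59.2 against 6.99 CPM and 81.2 against 13.9 CPM, and *Arpp21* at 211 against 37.7 CPM and 237 against 64.9 CPM. Of the 4 progenitor genes tested, *Spi1*, *Lyl1* and *Hhex* were lower, with ratios between 0.473 and 0.654. *Spi1*, which encodes the myeloid and early progenitor factor PU.1, was at 27.1 against 55.9 CPM and 27.5 against 69.4 CPM.

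The early gate had 15 and 24 *Lef1*-positive barcodes, too few for that comparison, so *Tcf7*-positive barcodes were set against barcodes with neither gene. There were 190 and 557 *Tcf7*-positive and 185 and 568 negative barcodes, with median depths of 9172 and 5602 against 6071 and 4426.5 UMIs. Here 18 of 3009 genes (0.598%) were higher and 37 (1.23%) lower with *Tcf7*. *Gzma* was at 1668 against 657 CPM in FL001 and 1711 against 543 CPM in FL002, *Il2ra* at 78.1 against 32.6 CPM and 141 against 63.1 CPM, and *Gata3* at 69.6 against 26.6 CPM and 70.3 against 32.9 CPM. The γ-chain constant genes *Tcrg-C1*, *Tcrg-C2* and *Tcrg-C4* and the β-chain constant genes *Trbc1* and *Trbc2* were also higher, with ratios between 1.52 and 2.71, although reads of such near-identical constant genes can be exchanged in counting.

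Barcodes without *Tcf7* in the early gate contained granulocyte transcripts. All 9 tested neutrophil and monocyte genes were lower with *Tcf7*, such as *S100a8* at 104 against 3355 CPM and 6.93 against 612 CPM, though this gene was counted in only 7.03% and 1.94% of the negative barcodes. *Cd34*, a progenitor surface gene, was at 56.7 against 145 CPM and 36.9 against 142 CPM, and *Fos* at 20.8 against 155 CPM and 75.9 against 451 CPM.

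Over the 10 values of 5 gates and 2 libraries, the genes whose level was most like that of *Tcf7* included *Dbi*, *Trbc2*, *Plin2* and *Igfbp7*, with Pearson r of log2 CPM between 0.978 and 0.982 among 3290 genes. For *Lef1* they were *Atp8a1*, *Tmed9*, *Bst1*, *Hdac4* and *Cdh1*, with r between 0.981 and 0.987. *Tcf7* and *Lef1* correlated at 0.690, and *Lef1* ranked 622 in likeness to *Tcf7*. *Trbc2* was at 531 and 564 CPM in the progenitor gate and 1767 and 1781 CPM in the commitment gate. *Atp8a1* was at 15.1 and 14.6 CPM in the progenitor gate and 162 and 103 CPM in the commitment gate, and like *Lef1* it was higher in FL001. These values share libraries and barcodes, and the correlations are descriptions.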

How the data were processed

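Libraries were made by 10x Chromium from mouse fetal liver progenitors and their cultured progeny, and the authors deposited raw UMI counts per gene and barcode for 2 libraries, with no filter on barcodes. The labels name the build mm9, whereas the gene identifiers are those of a later annotation, so positions and sequences were taken from GENCODE M21 (GRCm38) by gene identifier. Gene and barcode tables were made with CellRanger by the authors, and its alignment settings are not given in the sources used here. Barcodes were kept from 1500 UMIs and 500 genes upwards if mitochondrial UMIs made up no more than 10% (15121951 and 21290758 UMIs in all). UMIs were summed over the barcodes of a gate and expressed as CPM with exact Poisson intervals, shares were given exact Clopper-Pearson intervals, and ratios of levels exact conditional intervals. For thinning, 1500 UMIs were drawn from each barcode without replacement. With 1 library per group no count test such as a quasi-likelihood fit could be made, and genes were called by size in both libraries (at least 1.5-fold, 10 CPM added, at least 50 CPM). Genes named are up to 10 each way in the Il2ra and commitment gates, ranked by the library nearer to no change, members of 12 gene lists and the 5 genes most like each member. A few genes that this rule names are not reported here. *Tcf7*, *Lef1*, the gates and the gene lists were chosen with earlier results of these data known. Doublets were not removed, since Scrublet (scanpy 1.11.5) marked 7 and 1 barcodes, too few to have worked, and the 5% with the highest scores were left out as an alternative. The comparison step was tested on simulated data. Python 3.11.15, numpy 2.4.6 and scipy 1.17.1 were used.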

Additional observations from a re-analysis of the deposited data

How the results depend on the processing

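Leaving out a replicate was not possible with 1 library per group. No paired analysis was possible because each group holds 1 library and no test was made. No ratio whose interval excluded 1 changed direction, and 111 of 136 recomputed values stayed within counting error, or for gene counts within 1.5 times. Co-detection ratios had main intervals that included 1, but these intervals hold the share of each gene fixed and are no test of independence. Some ratios fell on the other side of 1 under alternatives. These were in the Il2ra gate (up to 1.079 in FL001 and 0.9463 in FL002) and the Cd3g gate of FL002 (1.097 with barcodes in 1 gate each), among others. That of the Cd3g gate of FL001 stayed below 1 under every alternative. With barcodes in 1 gate each, *Tcf7* in the Cd3g over the progenitor gate was 16.61 and 14.59 (FL001 and FL002), and after thinning 17.25 and 15.13. *Lef1* in the commitment over the early gate was 60.34 with a minimum of 3000 UMIs, 98.92 with mitochondrial UMIs at most 5% and 22.1 after thinning in FL001, and 28.06 with barcodes in 1 gate each and 11.7 after thinning in FL002. Thinning also gave 3.527 for *Lef1* in Il2ra barcodes with over without commitment genes in FL002, 0.558 and 3 for *Tcf7* and *Lef1* in FL001 over FL002 in the commitment gate, and 0.5945 for co-detection in the Cd3g gate of FL001. With gates set on thinned UMIs, chosen like the exclusion of haemoglobin and *S100a8* barcodes after seeing the data, *Tcf7* in FL001 over FL002 was 0.6234. With detection at 2 UMIs, co-detection in the commitment gate of FL002 was 1.166. Gene counts followed the level required: in the Il2ra gate 25 and 93 higher and 17 and 53 lower at a minimum of 100 and 20 CPM, and in the commitment gate 15 and 54 higher and 11 and 44 lower. Requiring *Tcf7* in *Lef1*-positive barcodes gave 18 genes higher in the commitment gate, 17 of them among the 31, and thinning gave 38 lower. After thinning, 31 of 41 higher and 17 of 33 lower genes of the Il2ra gate were called again, and 19 of 31 and 14 of 24 of the commitment gate. Of 100 recomputed levels of single gates, 76 stayed within counting error. The levels that moved included *Lef1* in the Cd3g and Il2ra gates of both libraries, which was lower with barcodes in 1 gate each. *Lef1* in the progenitor gate rests on only 8 and 7 UMIs, although the median depth of this gate, 8014.5 and 5649.5 UMIs, was the highest of the gates.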
